A study of Homo sapiens with 11 samples.

Results

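The transcripts described here encode 10 inflammatory cytokines and chemokines: IL8 (the older symbol of CXCL8, used in the deposited counts), CXCL1, CXCL2, CXCL3, CCL2, IL6, LIF, IL11, IL1A and IL1B. They were chosen by symbol, and all 10 were found among the 23228 gene symbols of the count tables. All 10 passed the filter on low counts, which left 15888 genes for testing. The study sequenced total RNA from a basal breast cancer line, MDA-MB231, and an osteosarcoma line, U2OS, both grown in DMEM with fetal bovine serum. It set the alkylating agent methyl methanesulfonate (MMS) beside 3 classical chemotherapeutics. Cells of each line received 8 h of 1 μM doxorubicin, 20 μM etoposide, 0.2 μM paclitaxel or 40 μg/mL MMS, or the vehicle DMSO. Doxorubicin and etoposide both poison topoisomerase II, doxorubicin also intercalates into DNA, MMS adds methyl groups to bases, and paclitaxel holds microtubules in their polymerised form. The 11 libraries were 1 per line and drug, 1 of U2OS DMSO and 2 of MDA-MB231 DMSO. MDA-MB231 DMSO replicate 2 and the MDA-MB231 MMS library carry 8hr in their titles and were paired with each other, whereas the other MDA-MB231 libraries were paired with DMSO replicate 1. No time is given for DMSO replicate 1 or U2OS DMSO. The description of DMSO replicate 2 calls it untreated, although its treatment label is DMSO.

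Chemokines are small secreted proteins that draw leukocytes along a gradient. CXCL8, CXCL1, CXCL2 and CXCL3 carry a Glu-Leu-Arg motif, bind the receptors CXCR1 and CXCR2 and attract neutrophils, whereas CCL2 binds CCR2 and attracts monocytes. IL-6, LIF and IL-11 each bind a receptor of their own and signal through the shared subunit gp130, encoded by IL6ST, to STAT3. IL-1α and IL-1β bind IL1R1 with its partner IL1RAP and signal through MYD88 to NF-κB, which switches on many of the other genes of the group. These genes respond to NF-κB, AP-1 and C/EBP factors, their messenger RNAs are short-lived because of AU-rich elements, and they are part of the secretory response that damaged or senescent cells show.

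The promoters show how alike those of CXCL1, CXCL2 and CXCL3 are and where such factor motifs lie. RefSeq promoters (GRCh38.p14) of 250 bases before to 50 after the gene's start were found for 8 of the 10 members, with CCL2 and LIF missing. Stretches of 150 bases ending at the same distance from the start are printed for 6 members, 5′ to 3′ on the gene's own strand. Capitals mark 2 motifs searched on both strands, GGNNTTTCC (an NF-κB-like sequence) and TGANTCA (an AP-1-like sequence). They lie at chr4:73740439-73740588 (+ strand) for IL8, chr4:73869263-73869412 (+) for CXCL1, chr4:74099176-74099325 (−) for CXCL2, chr4:74038670-74038819 (−) for CXCL3, chr7:22727070-22727219 (+) for IL6 and chr19:55370444-55370593 (−) for IL11.
IL8: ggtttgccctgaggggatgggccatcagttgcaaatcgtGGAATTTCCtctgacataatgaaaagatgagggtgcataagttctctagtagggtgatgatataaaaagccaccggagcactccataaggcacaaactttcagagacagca
CXCL1: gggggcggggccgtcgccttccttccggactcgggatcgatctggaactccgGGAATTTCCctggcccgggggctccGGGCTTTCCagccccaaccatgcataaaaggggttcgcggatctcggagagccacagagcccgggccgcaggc
CXCL2: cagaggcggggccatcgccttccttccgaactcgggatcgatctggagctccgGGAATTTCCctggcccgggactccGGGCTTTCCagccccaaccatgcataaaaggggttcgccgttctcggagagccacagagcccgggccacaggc
CXCL3: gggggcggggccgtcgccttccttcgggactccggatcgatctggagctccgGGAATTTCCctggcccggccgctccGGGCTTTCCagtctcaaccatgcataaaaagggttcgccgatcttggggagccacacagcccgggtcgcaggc
IL6: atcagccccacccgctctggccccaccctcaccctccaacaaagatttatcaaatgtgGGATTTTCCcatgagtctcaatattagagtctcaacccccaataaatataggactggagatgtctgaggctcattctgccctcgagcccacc
IL11: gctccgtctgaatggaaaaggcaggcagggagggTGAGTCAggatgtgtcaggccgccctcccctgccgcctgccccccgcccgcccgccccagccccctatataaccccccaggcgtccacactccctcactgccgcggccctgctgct
The NF-κB-like sequence lay at -91 to -83 from the start in IL8 and at -72 to -64 in IL6. CXCL1 and CXCL3 each held it at -78 to -70 and again at -53 to -45, and CXCL2 at -77 to -69 and -53 to -45. The AP-1-like sequence lay at -96 to -90 in IL11, and IL8 held one at -137 to -131, just outside the stretch printed. Of 35116 promoters of the same length, 6.26% held the NF-κB-like sequence and 7.71% the AP-1-like one. Neither motif was found in the IL1B window, and IL1A held the AP-1-like sequence at -12 to -6 and at 39 to 45. Over the whole 300 bases, the aligned promoters of CXCL1 and CXCL3 were 82.5% identical, those of CXCL2 and CXCL3 73.8% and those of CXCL1 and CXCL2 71.9%. IL8 shared 45.2% to 47.9% with these 3, and the identity of unrelated promoters was not computed for comparison. A match is a run of letters and was not tested for binding.

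Gene counts per library ranged from 16774156 (MDA-MB231 DMSO replicate 2) to 31588683, and levels are given as CPM, counts relative to library size after TMM scaling. The labels do not tell whether any libraries were grown as separate cultures. The 2 lines therefore serve as the replicates of a drug. The p-values for a drug measure how far the libraries of the lines depart from 1 shared response, which may be technical in part. They do not measure the spread between cultures of 1 line. For the difference in level between lines, the differently treated libraries of each line stand in for its replicates, so those p-values carry the same limit. A change in cell numbers and a change in RNA per cell cannot be told apart in bulk RNA. KRT8, KRT18, VIM and CD44 were expressed in both lines, and MDA-MB231 had ESR1 and PGR at no more than 0.327 and 0.612 CPM. SPARC stood at 596 to 1958 CPM in U2OS and at no more than 2.34 CPM in MDA-MB231, while the bone genes SP7, BGLAP and COL1A2 were at or near 0 in U2OS. The 14 immune cell markers summed to 17 to 58.95 CPM in U2OS and 101.8 to 242.4 CPM in MDA-MB231. Between 1 and 7 of them were at 0 in each library, CD68 carried most of the sum, and PTPRC, CD3E, CD79A and MS4A1 each stayed under 0.7 CPM in every library. Reads of near-identical genes are uncertain: 60 of 1048 windows of 50 bases in CXCL1 transcripts also occurred in CXCL2, 54 of 1169 CXCL2 windows occurred in CXCL3, and IL8 shared none with these 3. How the counting used strand is not given, and reads of IL6 and LIF cannot be told apart from those of genes annotated on the opposite strand (STEAP1B at IL6, LIF-AS1 at LIF).

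The MDA-MB231 DMSO libraries differed from each other in these genes, and this bears on every MDA-MB231 ratio. IL8 stood at 1212 CPM in replicate 1 and 549 CPM in replicate 2, CXCL1 at 627 and 341, CXCL3 at 54.0 and 23.0, CXCL2 at 55.4 and 26.7, and IL6 at 110.4 and 54.4. Replicate 2 was thus lower by 2.21-fold for IL8, 2.35-fold for CXCL3, 2.08-fold for CXCL2 and 2.03-fold for IL6. These 4 of the 10 passed 2-fold with the larger CPM at least 5 (0.5 CPM added to each side), all lower, beside 1.78% of 10832 genes in either direction and 0.96% lower. Another 4 members were lower in replicate 2 by less than 2-fold, and CCL2 and IL1B were higher by 1.43-fold and 1.17-fold. The median log2 ratio of the 10 was -0.73, against 0.01 over all genes. With 1 library on each side there is no replicate check of this difference.

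**Figure D1:**
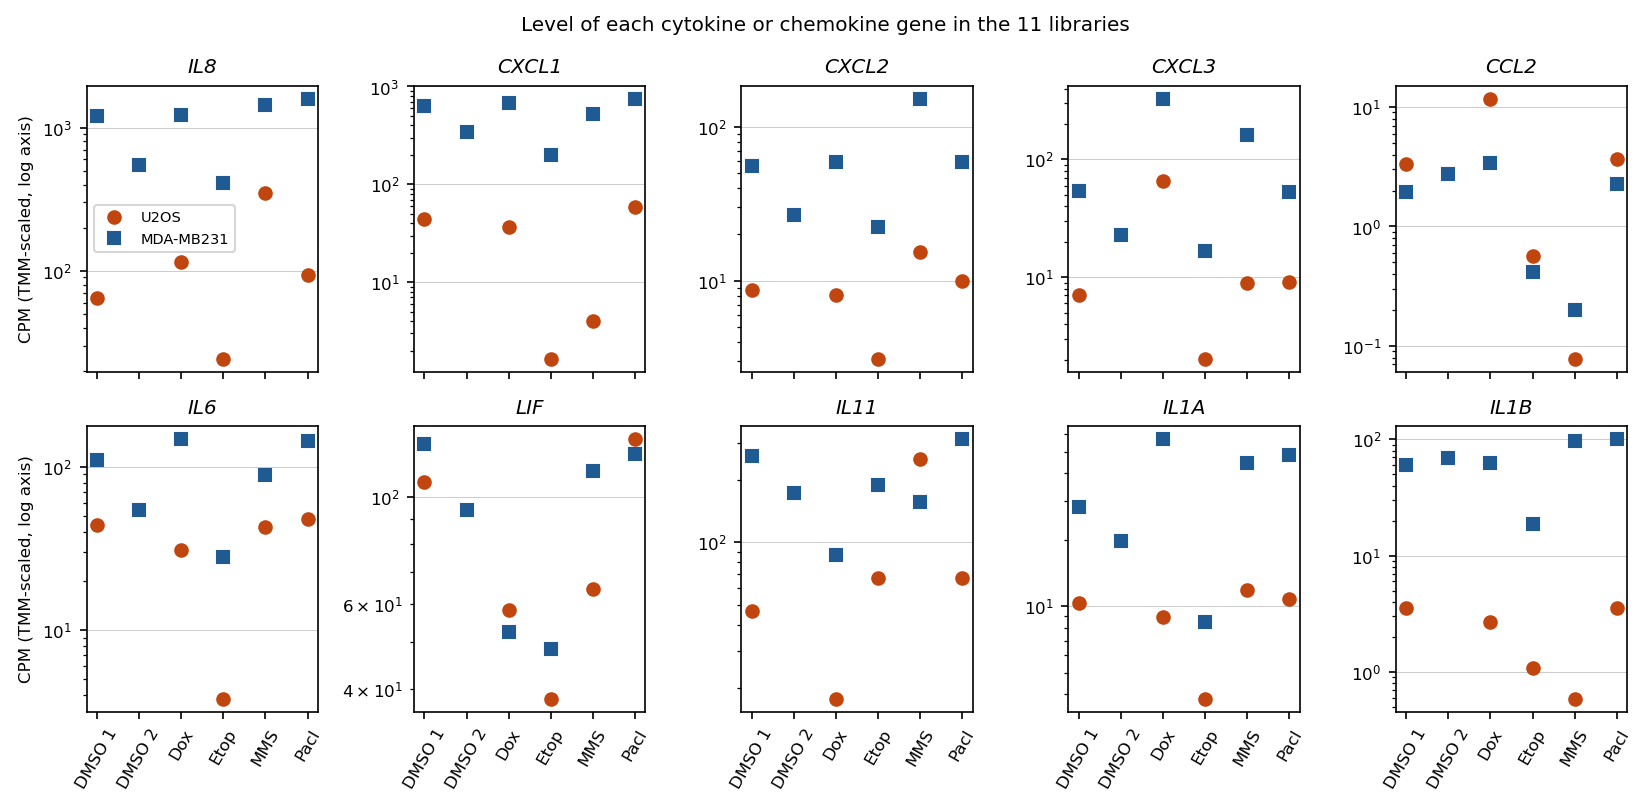
Level of each gene in the 11 libraries, in TMM-scaled CPM on a log axis, with U2OS libraries as circles and MDA-MB231 libraries as squares (DMSO 1 and DMSO 2 are replicates 1 and 2, Dox doxorubicin, Etop etoposide, Pacl paclitaxel). IL8, CXCL1, CXCL2 and IL1B do not overlap between lines (9.59% of all genes lie wholly lower in U2OS), and etoposide is the lowest library of both lines for IL8, CXCL1, CXCL2, CXCL3, IL6, IL1A and LIF.

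MDA-MB231 carried far more of the neutrophil chemokines and of IL1B than U2OS. IL8 ran from 409.9 (etoposide) through a median of 1216 to 1581 CPM (paclitaxel) over 6 MDA-MB231 libraries, and from 24.4 (etoposide) through 93.2 to 348 CPM (MMS) over 5 U2OS libraries. CXCL1 ran from 199 through 575 to 745 CPM in MDA-MB231 and from 1.65 through 36.7 to 59.0 CPM in U2OS. The lines did not overlap for either gene. IL1B ran from 18.9 through 66.5 to 100.6 CPM in MDA-MB231 and from 0.585 through 2.69 to 3.53 CPM in U2OS, and CXCL2 from 22.5 through 57.3 to 152 CPM against 3.11 through 8.76 to 15.4 CPM. These 2 genes did not overlap between lines either. The other 6 did overlap in at least 1 library. Of all 15888 genes, 24.3% did not overlap between lines and 9.59% lay wholly lower in U2OS, as these 4 did.

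Adjusted for drug in edgeR's quasi-likelihood fit, 8 of the 10 members were lower in U2OS and none higher, beside 61% of all genes called in either direction, 33.1% higher and 27.9% lower. The log2 difference, U2OS minus MDA-MB231, was -5.07 ± 0.39 (SE) for IL1B, -4.79 ± 0.69 for CXCL1 and -3.20 ± 0.18 for IL8 (edgeR adjusted p = 7.2e-06, 0.000372 and 1.2e-06). It was -2.85 for CXCL3, -2.64 for CXCL2, -1.71 for IL1A, -1.42 for IL6 and -1.30 for IL11. LIF, at -0.19 ± 0.17, and CCL2, at 0.47 ± 0.35, were not called (edgeR adjusted p = 0.347 and 0.261). Leaving out the MDA-MB231 or U2OS MMS library, MDA-MB231 DMSO replicate 2 or U2OS DMSO moved some of these values by more than 1.5-fold, within -5.75 to -3.87 for CXCL1, -5.88 to -4.45 for IL1B, and -1.91 to -0.70 for IL11, with CXCL3 at -2.13 without either MMS library. All 8 calls were kept, and LIF was called at -0.43 without MDA-MB231 DMSO replicate 2.

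Divided by transcript length, the untreated levels put IL8 and CXCL1 first in both lines. In MDA-MB231 the mean of both DMSO libraries was 516 CPM per kilobase for IL8 and 441 for CXCL1, then 94.8 for IL11, 54.0 for IL6, 39.7 for IL1B, 35.8 for CXCL3, 33.7 for CXCL2, 28.1 for LIF, 11.3 for IL1A and 3.16 for CCL2. The gaps below CXCL1, LIF and IL1A in that order were wider than the 2.35-fold by which CXCL3 differed between the DMSO libraries, and the other neighbours were closer than that. In U2OS DMSO the order was CXCL1 at 40.2 CPM per kilobase, IL8 at 38.2, IL6 at 28.7, LIF at 27.1, IL11 at 20.4, CXCL2 at 7.19, CXCL3 at 6.53, IL1A at 4.87, CCL2 at 4.49 and IL1B at 2.17. That order rests on 1 library.

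Doxorubicin raised CXCL3 in both lines and moved few of the other members. CXCL3, a neutrophil chemokine, stood at 66.0 CPM with doxorubicin and 7.02 CPM with DMSO in U2OS, and at 326 CPM against 54.0 and 23.0 CPM in the DMSO libraries of MDA-MB231. Each doxorubicin library was the highest of its line for CXCL3. The rise was 9.41-fold in U2OS and 6.04-fold in MDA-MB231 against DMSO replicate 1. The fitted log2 fold change was 3.24 ± 0.47 (SE; edgeR adjusted p = 0.000974). Each fitted value is 1 drug term shared by both lines and estimated from all 11 libraries, not the mean of the within-line ratios. It can lie outside both of them, as for IL11 with doxorubicin (-1.87 fitted, log2 ratios of -1.58 in MDA-MB231 and -1.38 in U2OS). The CXCL3 call was kept without any 1 library.

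CXCL1 and CXCL2, its closest relatives, did not follow CXCL3. CXCL1 stood at 36.7 CPM with doxorubicin and 44.1 with DMSO in U2OS, and at 682 CPM against 627 and 341 in MDA-MB231. CXCL2 stood at 8.06 and 8.76 CPM in U2OS, and at 59.1 CPM against 55.4 and 26.7 in MDA-MB231. Their fitted log2 fold changes were 0.26 ± 0.80 and 0.20 ± 0.32, neither called by edgeR (adjusted p = 0.813 and 0.644). Of the reads of these 3 genes, CXCL3 therefore took 59.6% in U2OS with doxorubicin (exact 95% interval 57.6% to 61.6%, counting error only) and 11.7% with DMSO (9.93% to 13.7%). In MDA-MB231 its share was 30.5% with doxorubicin, 7.34% in DMSO replicate 1 and 5.89% in replicate 2. Summed into 1 count, the 3 genes rose 1.84-fold in U2OS and 1.45-fold in MDA-MB231.

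**Figure D2:**
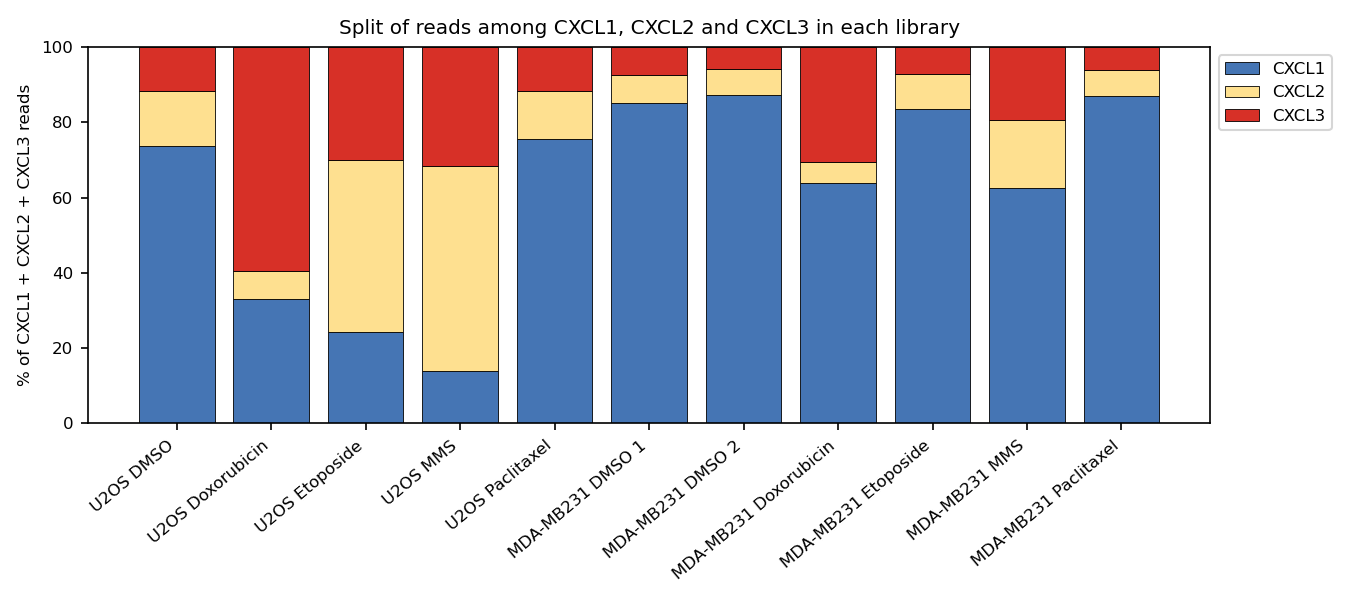
Stacked bars give, for each of the 11 libraries, the percent of the reads of CXCL1, CXCL2 and CXCL3 that fell to each gene. CXCL3 (top segment) takes 59.6% in U2OS and 30.5% in MDA-MB231 with doxorubicin, and CXCL1 (bottom segment) falls to 14% in U2OS with MMS.

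CCL2, the monocyte chemokine, was low throughout, with 239 reads (11.7 CPM) after doxorubicin and 65 reads (3.33 CPM) with DMSO in U2OS. MDA-MB231 had 73 reads (3.41 CPM) after doxorubicin, 49 reads (1.93 CPM) in DMSO replicate 1 and 44 reads (2.75 CPM) in replicate 2. The doxorubicin library was again the highest of each line. The fitted log2 fold change was 1.48 ± 0.43 (edgeR adjusted p = 0.0224). The call ended, at edgeR adjusted p of 0.0672 to 0.193, without U2OS doxorubicin (0.89), U2OS DMSO (1.53) or MDA-MB231 DMSO replicate 1 (1.67). It also ended with a block for line alone, which pools the MDA-MB231 title forms (1.26, edgeR adjusted p = 0.0569).

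The gp130 cytokines IL11 and LIF fell with doxorubicin, and IL6 did not pass the test. IL11 stood at 17.6 CPM against 46.6 with DMSO in U2OS, and at 86.4 CPM against 260 and 173 in MDA-MB231, the lowest library of each line. LIF, a cytokine named for inhibiting leukaemia cells, stood at 58.2 CPM against 108 in U2OS and at 52.6 against 129 and 93.9 in MDA-MB231. The doxorubicin libraries lay below the DMSO libraries for both genes, though etoposide was lower still for LIF. The fitted log2 fold changes were -1.87 ± 0.50 for IL11 and -0.94 ± 0.25 for LIF (edgeR adjusted p = 0.0152 and 0.0146). Both calls ended without MDA-MB231 DMSO replicate 1 or MDA-MB231 doxorubicin, IL11 also without U2OS doxorubicin and LIF without U2OS DMSO, at values of -2.21 to -1.58 and -0.87 to -0.74 (edgeR adjusted p = 0.0611 to 0.149). With a block for line alone the IL11 call ended as well (-1.45, edgeR adjusted p = 0.0673). IL6 stood at 30.8 against 43.7 CPM in U2OS and at 148 against 110.4 and 54.4 CPM in MDA-MB231, with a fitted value of -0.01 ± 0.31.

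Over the 10 members, edgeR called 2 higher (CXCL3, CCL2) and 2 lower (IL11, LIF) with doxorubicin, beside 42.5% of 15888 genes in either direction, 21.9% higher and 20.6% lower. A share of 4 of 10 is close to that background. IL8, IL1A and IL1B were not called, at 0.29 ± 0.24, 0.56 ± 0.35 and 0.17 ± 0.48. IL1A stood at 57.0 CPM in MDA-MB231 against 28.1 and 19.8 with DMSO, but at 8.94 against 10.3 in U2OS, and it was called at 1.09 without U2OS doxorubicin. Within each line, 2 members passed 2-fold upward (CXCL3 in both, IL1A in MDA-MB231, CCL2 in U2OS), beside 8.19% of genes in MDA-MB231 and 14.3% in U2OS. Downward, 2 passed in MDA-MB231 (IL11 and LIF) and 1 in U2OS (IL11), beside 18.8% and 18.3% of genes, with 27% and 32.6% in either direction. Against MDA-MB231 DMSO replicate 2 in place of replicate 1, 5 members were 2-fold higher (CXCL3, IL1A, IL6, IL8 and CXCL2) and none lower, beside 12% of genes higher and 20.9% lower. Scaling by total counts lowered all doxorubicin log2 ratios by 0.30 in U2OS and 0.12 in MDA-MB231, which turned the small MDA-MB231 ratios of IL8, CXCL2 and IL1B negative, and raised those of U2OS etoposide by 0.185. The summed immune markers were highest with doxorubicin in each line, at 58.95 CPM in U2OS against 22.9 with DMSO and 242.4 CPM in MDA-MB231 against 138.7 and 123.3. Of 8 of these markers tested, 4 were called higher and none lower with doxorubicin, beside 21.9% and 20.6% of all genes. CD68 was among the 4 (log2 1.09), and the median of the 8 was 1.54, against 0.07 over all genes. PTPRC stayed at 0.44 and 0.561 CPM with doxorubicin. Any part of immune cells in the chemokine results was not tested.

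**Figure D3:**
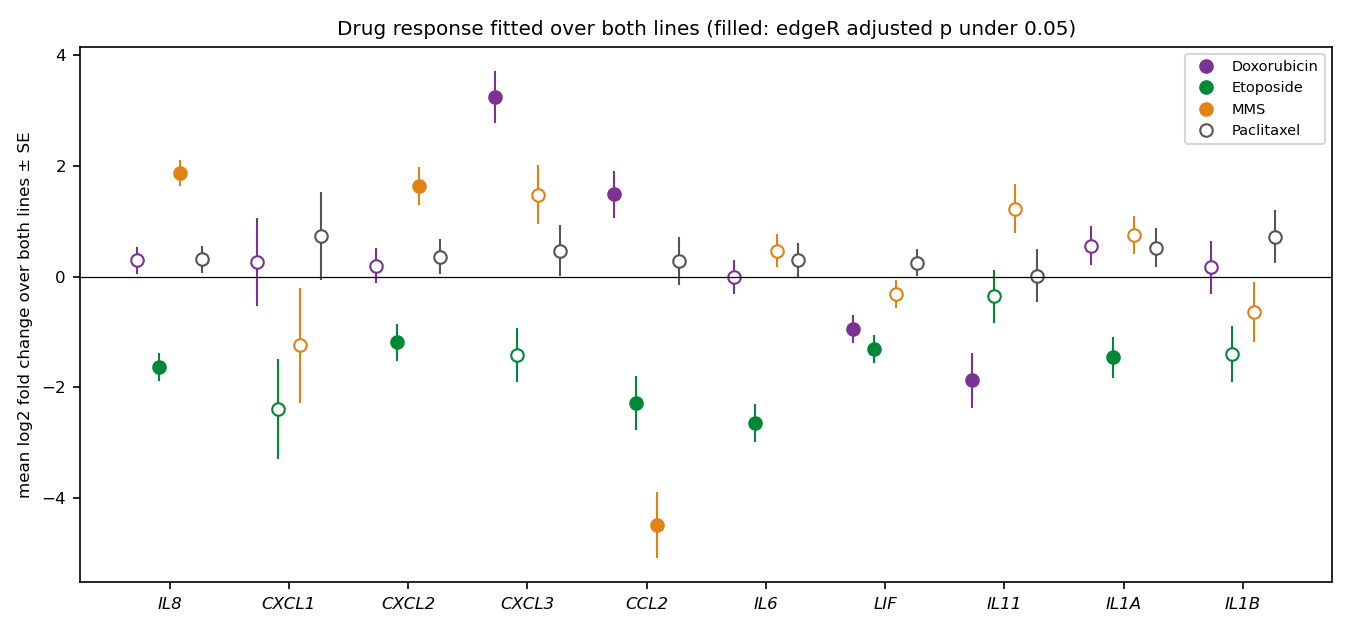
Fitted mean log2 fold change over both lines (± SE) for each gene and drug, with filled points passing edgeR's adjusted p under 0.05 and open points not. All 10 etoposide points lie below 0, whereas doxorubicin and MMS points lie on both sides.

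Etoposide lowered most members in both lines. IL6 stood at 3.79 CPM with etoposide and 43.7 with DMSO in U2OS, and at 28.0 CPM against 110.4 and 54.4 in MDA-MB231. IL8 stood at 24.4 against 65.1 CPM in U2OS and at 409.9 against 1212 and 549 CPM in MDA-MB231. CXCL1 stood at 1.65 against 44.1 CPM in U2OS and at 199 against 627 and 341 CPM in MDA-MB231. For these 3 genes the etoposide library was the lowest of each line.

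The fitted log2 fold change was -2.64 ± 0.34 for IL6 and -1.63 ± 0.25 for IL8 (edgeR adjusted p = 0.00508 and 0.00774). Calls were also made for CCL2 at -2.28 ± 0.49, IL1A at -1.46 ± 0.37, LIF at -1.31 ± 0.25 and CXCL2 at -1.18 ± 0.33 (edgeR adjusted p = 0.0185, 0.0296, 0.0131 and 0.042). Thus 6 of 10 members fell and none rose, beside 17.2% of all genes called in either direction, 7.97% higher and 9.23% lower. CXCL1 missed the threshold at -2.40 ± 0.90, its 26.7-fold lower level in U2OS standing beside 3.15-fold in MDA-MB231 (edgeR adjusted p = 0.1). CXCL3 at -1.42 ± 0.49 and IL1B at -1.40 ± 0.51 also missed it (edgeR adjusted p = 0.0771 and 0.0912). IL11 was the exception in size, at -0.35 ± 0.48, with 67.0 against 46.6 CPM in U2OS and 188 against 260 and 173 CPM in MDA-MB231.

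In level, CCL2 was at 21 reads against 65 in U2OS and at 13 reads against 49 and 44 in MDA-MB231. IL1A, which encodes an alarmin that dying cells release, was at 3.81 against 10.3 CPM in U2OS and at 8.50 against 28.1 and 19.8 CPM in MDA-MB231. LIF was at 38.2 against 108 CPM and at 48.4 against 129 and 93.9 CPM. Etoposide gave the lowest library of each line for IL1A and LIF, as it did for CXCL2 and CXCL3. Within a line, 7 members in U2OS and 8 in MDA-MB231 were 2-fold lower and none 2-fold higher, beside 7.5% and 11.1% of genes lower, 6.11% and 8.62% higher, and 13.6% and 19.8% in either direction. CCL2 and U2OS IL1B were below the level needed to count.

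The MDA-MB231 side of this comparison depends on the DMSO library. Against DMSO replicate 2 instead of replicate 1, 2 members in place of 8 were 2-fold lower (IL1A and IL1B) and none higher, beside 12.9% of genes lower and 10.4% higher, and the median log2 ratio of the 10 was -0.86 in place of -1.60. The log2 ratio of IL8 moved from -1.56 to -0.42, that of IL6 from -1.96 to -0.95, that of CXCL1 from -1.65 to -0.78 and that of IL11 from -0.47 to 0.12. In the fit, IL6 was called without any 1 library, at -3.25 without MDA-MB231 etoposide. IL8, IL1A, LIF, CCL2 and CXCL2 lost their calls without MDA-MB231 DMSO replicate 1 or MDA-MB231 etoposide. Without U2OS DMSO the last 4 of these lost theirs, without U2OS etoposide LIF, CCL2 and CXCL2 did, and without either paclitaxel library CXCL2 did. In these fits IL8 was at -1.76 to -1.59 (and at -1.28, not called, with a block for line alone), IL1A at -1.59 to -1.02, LIF at -1.43 to -1.10, CCL2 at -2.57 to -1.97 and CXCL2 at -1.20 to -0.94. Without either MMS library or without MDA-MB231 DMSO replicate 2, CXCL1 (-2.69 to -2.68), CXCL3 (-1.73 to -1.72) and IL1B (-1.69) were called as well.

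**Figure D4:**
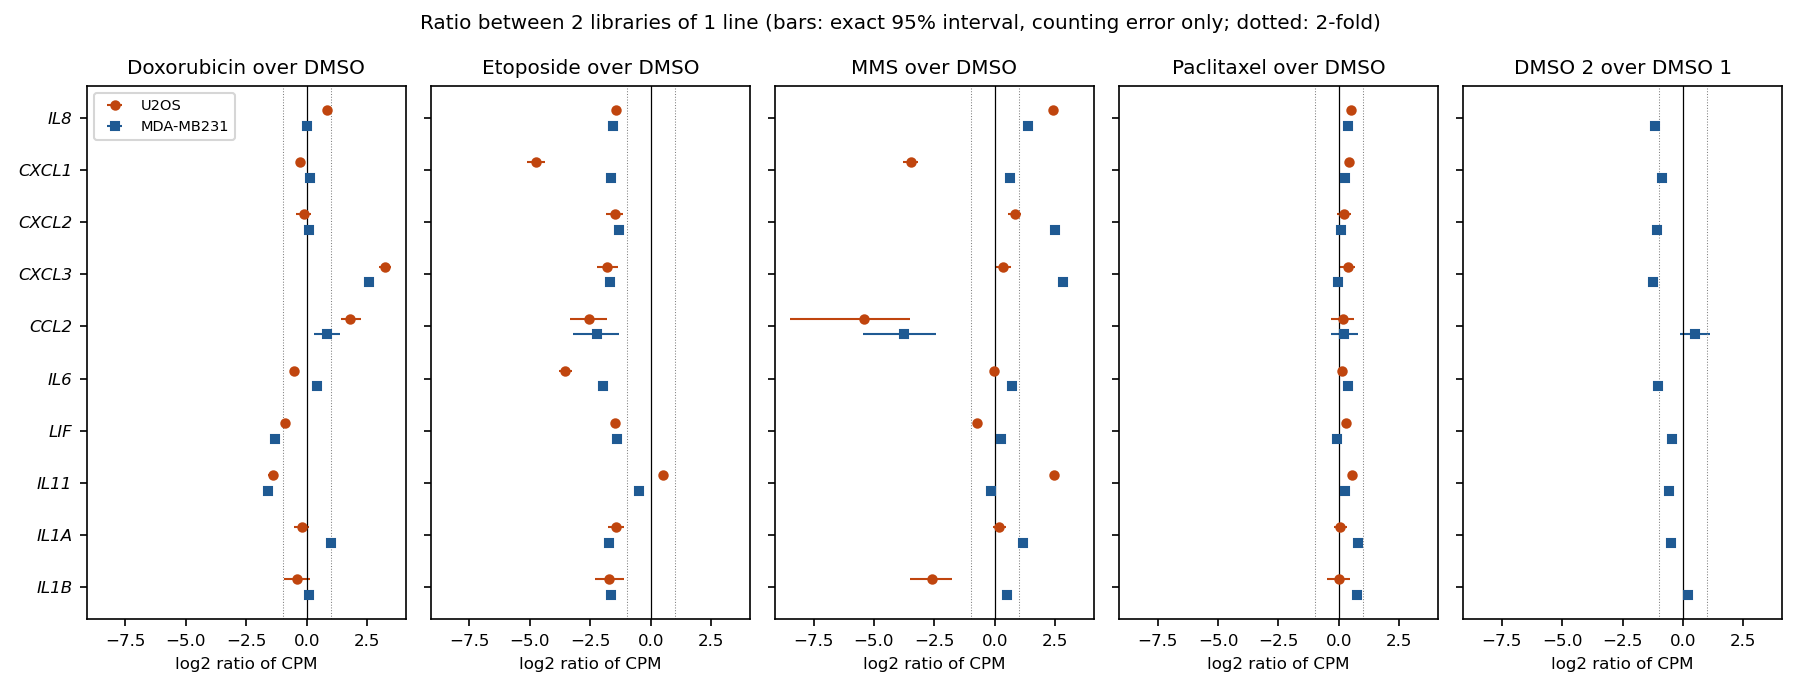
Log2 ratio of CPM of each drug library over the DMSO library of its line and title form, and of MDA-MB231 DMSO replicate 2 over replicate 1, with exact 95% intervals that cover counting error only and dotted lines at 2-fold. In the panel of the DMSO pair 4 of 10 genes lie beyond 2-fold on the lower side, and with MMS the points of CXCL1, IL11, IL1B, LIF and IL6 lie on opposite sides of 0 in the 2 lines.

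MMS raised IL8 in both lines, raised CXCL2, and brought CCL2 close to the limit of counting. IL8 stood at 348 CPM with MMS and 65.1 with DMSO in U2OS, and at 1431 CPM against 549 in DMSO replicate 2 and 1212 in replicate 1 of MDA-MB231. MMS was the highest U2OS library for IL8, while paclitaxel was higher in MDA-MB231. The level was 5.34-fold higher in U2OS and 2.61-fold higher in MDA-MB231 against its paired DMSO library, with a fitted log2 fold change of 1.88 ± 0.23 (edgeR adjusted p = 0.00568). Against DMSO replicate 1 the MDA-MB231 log2 ratio was 0.24 in place of 1.38, and the call ended without U2OS MMS (1.38, edgeR adjusted p = 0.28), a fit that rests on 1 MDA-MB231 pair. It also ended with a block for line alone (1.69, edgeR adjusted p = 0.0514).

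CXCL2 stood at 15.4 against 8.76 CPM in U2OS and at 152 against 26.7 and 55.4 CPM in MDA-MB231, the highest library of each line. Its fitted value was 1.64 ± 0.34 (edgeR adjusted p = 0.023). CXCL3 stood at 8.93 against 7.02 CPM in U2OS and at 163 against 23.0 and 54.0 CPM in MDA-MB231. Its fitted value of 1.48 ± 0.53 was not called (edgeR adjusted p = 0.103). The MDA-MB231 rises were 5.69-fold for CXCL2 and 7.08-fold for CXCL3, and log2 1.44 and 1.58 against DMSO replicate 1. The CXCL2 call ended without U2OS MMS (2.51), without MDA-MB231 MMS or DMSO replicate 2 (0.86) and without U2OS DMSO or MDA-MB231 DMSO replicate 1 (1.83 and 1.69).

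CXCL1 went opposite ways in the 2 lines with MMS. It stood at 3.98 CPM against 44.1 in U2OS, 11.1-fold lower, and at 524 CPM against 341 and 627 in MDA-MB231, 1.54-fold higher than its paired DMSO library and below the other. Its share of the CXCL1, CXCL2 and CXCL3 reads was 14% in U2OS with MMS (exact interval 11.6% to 16.8%) and 73.7% with DMSO, and 62.5% against 87.3% in MDA-MB231. The 3 genes summed were 2.09-fold lower in U2OS and 2.14-fold higher in MDA-MB231. The fitted value of CXCL1 was -1.24 ± 1.04 and was not called.

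CCL2 had 2 reads with MMS and 65 with DMSO in U2OS, a log2 ratio of CPM of -5.42 with an exact 95% interval of -8.49 to -3.50. In MDA-MB231 it had 5 reads with MMS and 44 in the paired DMSO library, at -3.78 (-5.47 to -2.45). The MMS library was the lowest of each line, and the fitted value was -4.49 ± 0.60 (edgeR adjusted p = 0.00694). It was -3.74 and not called without U2OS MMS (edgeR adjusted p = 0.278), and -5.43 and -5.42, still called, without MDA-MB231 DMSO replicate 2 or MDA-MB231 MMS.

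IL11 and IL1B also differed in direction between lines with MMS. IL11 stood at 252 CPM against 46.6 in U2OS, 5.4-fold higher, and at 156 CPM against 173 and 260 in MDA-MB231. Its MDA-MB231 log2 ratio of -0.15 was smaller than the -0.59 between the DMSO libraries of that line. IL1B stood at 0.585 CPM against 3.53 in U2OS and at 97.8 CPM against 69.9 and 59.7 in MDA-MB231. Neither was called over both lines (IL11 1.23 ± 0.45, IL1B -0.65 ± 0.54, edgeR adjusted p = 0.112 and 0.469). IL6 at 0.47 ± 0.30, IL1A at 0.75 ± 0.35 and LIF at -0.32 ± 0.25 were not called either. Without MDA-MB231 MMS or DMSO replicate 2, fits that take MMS from U2OS alone, IL11 (2.24) and IL1B (-2.41 and -2.40) were called.

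In all, edgeR called 2 members higher (IL8, CXCL2) and 1 lower (CCL2) with MMS, beside 10.4% of all genes in either direction, 5.23% higher and 5.16% lower. DESeq2 called 5 of the 10, beside 18.3% of all genes. Within a line, 4 members were 2-fold higher in MDA-MB231 (IL8, CXCL2, CXCL3 and IL1A), and none lower, beside 2.71% of genes higher, 3.4% lower and 6.11% in either direction. Against DMSO replicate 1 there were 2 higher (CXCL2 and CXCL3) and none lower, beside 3.84% and 4.94% of genes. In U2OS 2 were higher (IL8 and IL11) and 1 lower (CXCL1), beside 7.32% and 11.2% of genes, and 18.6% in either direction. Whether the response to MMS alone differs between lines could not be tested with 1 library in each. The mean response over all 4 drugs did not pass edgeR's test of a line difference for any of 15888 genes, with 204 at an unadjusted p under 0.05, none of them a member, and 2 called by DESeq2. For CXCL1 that difference, U2OS minus MDA-MB231, was -1.92 ± 1.11, and for IL11 1.30 ± 0.60.

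Paclitaxel left all members within 2-fold of their DMSO library in both lines, where 0.471% of genes in MDA-MB231 (0.462% higher, 0.00923% lower) and 0.0888% in U2OS (0.0799% higher, 0.00888% lower) passed 2-fold. IL8 stood at 93.2 against 65.1 CPM in U2OS and at 1581 against 1212 CPM in MDA-MB231, and IL1A at 10.7 against 10.3 and 48.2 against 28.1 CPM. LIF stood at 132 against 108 and 122 against 129 CPM. The fitted values of the 10 were all positive, from 0.01 ± 0.48 for IL11 to 0.74 ± 0.79 for CXCL1. None was called by edgeR, beside 0% of 15888 genes, with 110 genes and no member at an unadjusted p under 0.05 and none called by DESeq2. Against MDA-MB231 DMSO replicate 2, 6 members in MDA-MB231 were 2-fold higher with paclitaxel (IL8, IL6, IL1A, CXCL3, CXCL2 and CXCL1) and none lower, beside 2.56% and 1.09% of genes. These 6 genes were 1.42- to 2.35-fold lower in that library than in DMSO replicate 1.

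The topoisomerase II poisons separated most of the group. Doxorubicin minus etoposide gave 8 members higher and 1 lower in edgeR, beside 46.4% of all genes called in either direction, 24.1% higher and 22.3% lower. In each line both drug libraries share a block, so they are compared directly. The log2 difference was 4.67 ± 0.56 for CXCL3, 3.77 ± 0.51 for CCL2, 2.63 ± 0.34 for IL6, 2.02 ± 0.39 for IL1A and 1.92 ± 0.26 for IL8 (edgeR adjusted p from 0.000356 to 0.0029). These 5 calls were kept without any 1 library, with CCL2 at 3.16 without U2OS doxorubicin, IL1A at 1.40 without MDA-MB231 doxorubicin and IL6 at 3.28 without MDA-MB231 etoposide.

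CXCL1 (2.66 ± 0.93), IL1B (1.57 ± 0.53), CXCL2 (1.38 ± 0.35) and IL11 (-1.52 ± 0.49) were also called, and LIF (0.37 ± 0.26) was not (edgeR adjusted p = 0.266). The IL1B and IL11 calls ended without any 1 of the doxorubicin, etoposide or paclitaxel libraries or MDA-MB231 DMSO replicate 1, at 1.21 to 1.8 and -1.86 to -1.23. The CXCL1 call ended in the same fits, at 1.75 to 2.89, except without MDA-MB231 etoposide, where it was 4.49. With a block for line alone the IL1B (1.56) and IL11 (-1.47) calls ended too. That of CXCL2 ended without MDA-MB231 doxorubicin or either etoposide library, at 1.29 to 1.38.

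Most members were higher with MMS than with etoposide as well, with 9 of 10 fitted differences above 0. CCL2 (-2.21 ± 0.71) and IL11 (1.58 ± 0.51) were not called (edgeR adjusted p = 0.0823 and 0.082). Both had the opposite sign in doxorubicin minus etoposide. In MDA-MB231 the MMS library is in another block than the other drugs, so its contrasts with them run through the 2 DMSO libraries, which differ in these genes. MMS minus etoposide was 3.5 ± 0.29 for IL8, 3.11 ± 0.39 for IL6, 2.91 ± 0.63 for CXCL3, 2.82 ± 0.41 for CXCL2 and 2.21 ± 0.43 for IL1A (edgeR adjusted p from 0.00311 to 0.0272). These 5 were called higher and none lower, beside 9.06% of genes in either direction, 4.73% higher and 4.33% lower. Without U2OS MMS the calls of IL8 (2.88), IL6 (3.41) and IL1A (2.73) ended, and CXCL2 (3.90) and CXCL3 (4.55) stayed called at larger values. The IL1A call also ended without MDA-MB231 etoposide (1.83), DMSO replicate 2 of MDA-MB231 or its MMS library (1.96 each), and stood at 2.82 without U2OS etoposide. The CXCL3 call ended without MDA-MB231 DMSO replicate 1, either etoposide library or U2OS paclitaxel, at 2.61 to 3.01, and was 1.92 and 1.93 without MDA-MB231 DMSO replicate 2 or MDA-MB231 MMS. In those last fits IL11 was also called (2.19 and 2.20), as was LIF without either doxorubicin library (1.03 and 1.04) and with a block for line alone (1.02).

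MMS and doxorubicin differed in CCL2, IL11, IL8, CXCL2 and CXCL3, with 3 members higher and 2 lower with MMS beside 42.6% of genes in either direction, 20.4% higher and 22.3% lower. CCL2 was lower by -5.97 ± 0.66 and CXCL3 by -1.76 ± 0.62, while IL11 was higher by 3.10 ± 0.54, IL8 by 1.58 ± 0.27 and CXCL2 by 1.44 ± 0.41 (edgeR adjusted p from 0.000347 to 0.0475). CCL2 was called in every fit that left out 1 library, at -6.79 to -5.11 where it moved by more than 1.5-fold (without either MMS library, MDA-MB231 DMSO replicate 2 or U2OS doxorubicin). Without U2OS MMS the calls of IL11 (1.36), IL8 (0.96) and CXCL3 (-0.07) ended and CXCL2 was 2.52. The CXCL2 call ended without U2OS doxorubicin (1.38), and that of CXCL3 without any doxorubicin, etoposide or paclitaxel library (-1.98 to -1.33). Without MDA-MB231 MMS or DMSO replicate 2, IL11 was at 3.75 and 3.8 and CXCL3 at -2.70 and -2.65, and CXCL1 (-3.06 and -3.01) and IL1B (-2.27 and -2.22) were called too. LIF was called at 1.36 without U2OS MMS. With a block for line alone the IL8 call ended (1.09, edgeR adjusted p = 0.0938). Against paclitaxel, MMS gave CCL2 at -4.78 ± 0.66 and IL8 at 1.56 ± 0.28, 1 member lower and 1 higher beside 7.26% of genes in either direction, 3.85% lower and 3.41% higher. Both calls ended without U2OS MMS (-3.93 and 0.94) or either paclitaxel library (-4.94 to -4.66 and 1.40 to 1.68), and CCL2 was -5.62 and -5.61 without MDA-MB231 DMSO replicate 2 or MDA-MB231 MMS, where IL1B (-2.83 in each) and IL11 (1.85 and 1.86) were called. With a block for line alone IL8 was at 1.02 and not called.

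Across the 11 libraries, centred within U2OS and within the 2 title forms of MDA-MB231, IL6 and IL1A varied most alike (Pearson r = 0.875), followed by IL8 and CXCL2 (0.864) and CXCL1 and IL1B (0.838). CXCL1 correlated weakly with IL8 (0.288), and IL11 ran against CCL2 (-0.719). Among 10682 genes, KYNU was closest to IL6 (0.991), TALDO1 to CXCL3 (0.987), BPHL to IL1A (0.978), LOC654433 to CXCL1 (0.977) and THOC1 to IL11 (0.969). INF2 was closest to IL1B (0.965), TRDMT1 to LIF (0.965), MKX to CXCL2 (0.96) and LOC283624 to IL8 (0.959). CCL2 was below the level set for this search. The points share DMSO libraries and drugs, so these coefficients describe the 11 libraries and carry no p.

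The receptors of the CXC chemokines and of CCL2 were hardly detected in these lines, whereas the gp130 and IL-1 receptors were. CXCR1, CXCR2, CCR2 and the decoy IL1R2 stayed under 0.3 CPM in every library, and IL1RN, the IL-1 receptor antagonist, at no more than 0.342 CPM. IL6ST, the gp130 subunit, stood at 308 to 870.5 CPM, LIFR at 48.2 to 121 CPM and IL1RAP at 18.6 to 95 CPM. IL6R, which binds IL-6, rose with etoposide from 8.14 to 23.4 CPM in U2OS and to 15.5 CPM in MDA-MB231 from 4.96 and 7.25 (log2 1.46 ± 0.28, edgeR adjusted p = 0.0138). IL11RA, which binds IL-11, also rose (1.55 ± 0.36), as did IL1R1 and LIFR (1.04 and 0.76). With etoposide 4 of 16 tested receptors were thus called higher and 2 lower, CXCR4 (-1.33) and TNFRSF1A (-0.60), beside 17.2% of all genes called. With doxorubicin 4 were higher and 3 lower, close to the 42.5% of all genes called. The lower ones were TNFRSF1A, the TNF receptor (-3.12 ± 0.18), TLR3 (-2.21) and IL1R1 (-1.36). With MMS 1 of 16 was called, beside 10.4% of all genes: CXCR4, the CXCL12 receptor, lower at -2.01 ± 0.18. With paclitaxel none was called, beside 0% of all genes.

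**Figure D5:**
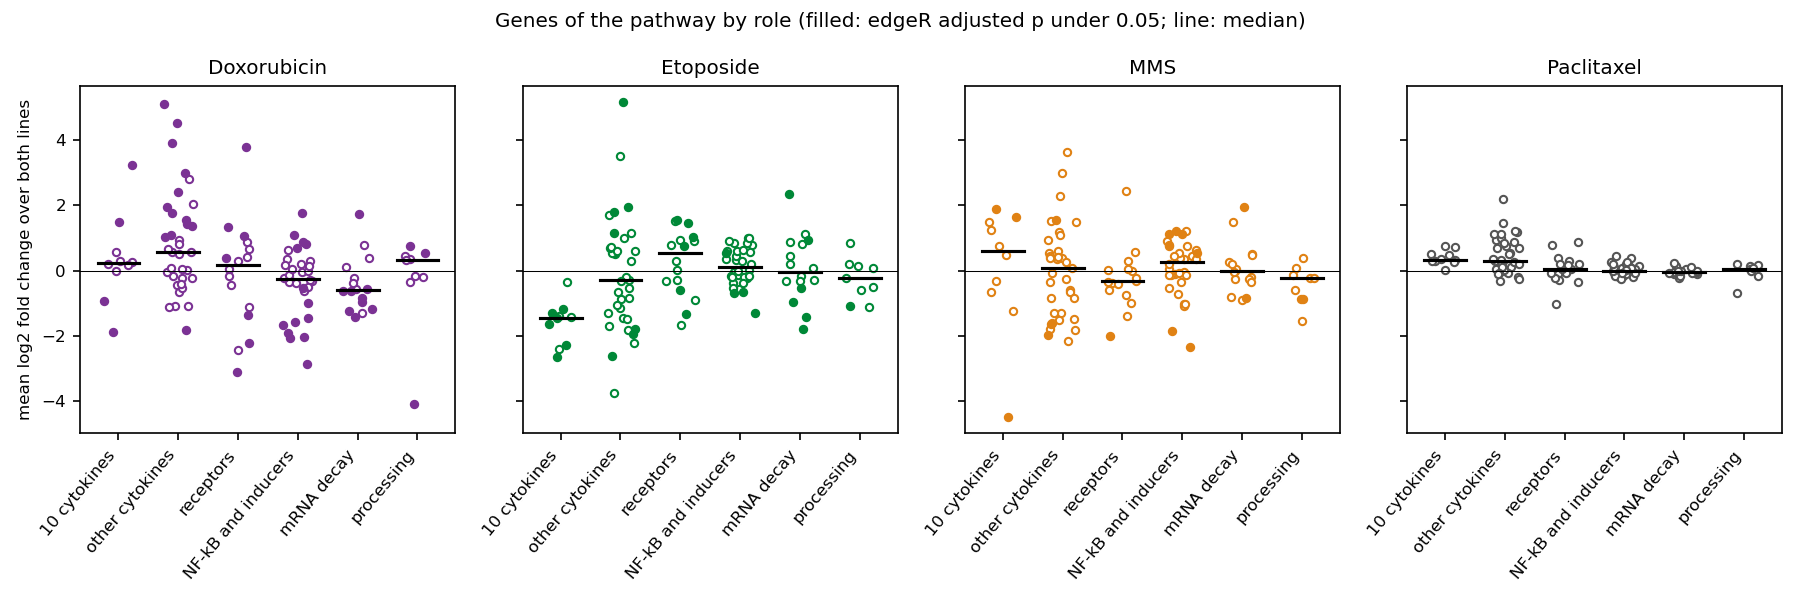
Each point is the fitted log2 fold change of 1 gene, shared by both lines, grouped by role and drug. Points are filled where edgeR's adjusted p is under 0.05, with a bar at the group's median. The 10 cytokines have a median of -1.44 with etoposide, whereas the NF-κB group's median is 0.11.

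Of 35 other cytokines and chemokines tested, 12 were higher and 1 lower with doxorubicin (21.9% and 20.6% of all genes), 4 higher and 3 lower with etoposide (7.97% and 9.23%), and 1 higher and 2 lower with MMS (5.23% and 5.16%). CCL20, which attracts cells bearing CCR6, was called higher with all 3 (log2 1.54 ± 0.34, 1.78 ± 0.33 and 1.55 ± 0.33), comparisons that share their DMSO libraries. It stood at 5.81, 9.60 and 6.47 CPM against 2.56 with DMSO in U2OS. In MDA-MB231 it stood at 4.68, 3.89 and 8.87 CPM, against 1.38 in DMSO replicate 1 and 2.63 in replicate 2. With paclitaxel, where no gene was called, CCL20 also stood higher than in U2OS DMSO and MDA-MB231 DMSO replicate 1, at 5.25 and 3.28 CPM. IL32 and the membrane-bound chemokine CXCL16 rose with doxorubicin (1.42 and 1.36), and TGFB2 and the gp130 cytokine CTF1 fell with etoposide (-2.62 and -1.95). The list's median was 0.57, -0.28 and 0.08 for the 3 drugs, against 0.07, 0.02 and -0.04 over all genes.

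Of 32 genes of the NF-κB, C/EBP and AP-1 machinery, 5 were higher and 9 lower with doxorubicin, 1 higher and 3 lower with etoposide, and 5 higher and 2 lower with MMS. Over all genes 42.5%, 17.2% and 10.4% were called, so the doxorubicin count is close to that background. Doxorubicin lowered FOSL1, an AP-1 subunit (-2.85 ± 0.27), NFKBIA, the NF-κB inhibitor that is itself an NF-κB target (-2.07 ± 0.34), and BIRC3 (-2.04 ± 0.38). MMS lowered BCL3 (-2.35 ± 0.29) and BIRC3 (-1.86 ± 0.38) and raised CEBPB, a C/EBP factor of the IL6 and IL8 promoters (1.21 ± 0.20). Etoposide lowered FOSL1 (-1.30), TNIP1 (-0.69) and IRAK1 (-0.65). NFKBIA stood at 22.0 CPM with doxorubicin and 60.6 with DMSO in U2OS, and at 37.9 against 197 and 148 CPM in MDA-MB231. The list's medians were -0.25, 0.11 and 0.27.

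Among 16 genes of AU-rich messenger decay and feedback, 1 was higher and 8 lower with doxorubicin, 2 higher and 4 lower with etoposide, and 1 each way with MMS, beside the same shares of all genes (42.5%, 17.2% and 10.4%). ZFP36, which encodes the decay factor tristetraprolin, rose with doxorubicin (1.74 ± 0.44) and etoposide (2.33 ± 0.46). HNRNPD, another AU-rich binding protein, fell with etoposide (-1.80 ± 0.15), and ZFP36L1 fell with both (-1.23 and -1.44). DUSP1, a phosphatase of the p38 and JNK kinases, fell with doxorubicin (-1.43 ± 0.25) and rose with MMS (1.95 ± 0.23). Of 9 cytokine processing genes, 2 were higher and 1 lower with doxorubicin, 0 and 1 with etoposide, and 0 and 2 with MMS, beside those shares. NLRP3, the inflammasome sensor upstream of IL-1β maturation, fell with doxorubicin (-4.07 ± 0.64), and the calpain CAPN2 fell with etoposide and MMS (-1.10 and -0.87). Paclitaxel gave no call in any of these lists.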

How the data were processed

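RNA-seq libraries of 11 samples were analysed. The authors deposited whole-number read counts per gene symbol, 1 table per library. Per the submitters' processing notes, the tools were CASAVA 1.8.2, TopHat2 2.0.8b and HTSeq (no version), with the builds hg19 and mm9. How those tools were set is not given in the sources used here. The 5 summary lines of each table stayed out of library sizes and tests, among them reads aligned to several places (28.4% to 37.5%).

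edgeR 4.0.16 under R 4.3.3 fitted the counts of all genes (quasi-likelihood test with robust settings, TMM, filterByExpr, Benjamini-Hochberg over 15888 genes, adjusted p under 0.05). The model held a term per drug and a replicate block of 3 levels: U2OS and the 2 title forms of MDA-MB231. The pairing comes from the cell line. It left 4 residual degrees of freedom, or 3 with the line term, and a common biological coefficient of variation of 0.213. SE is the log2 fold change over the square root of F. Within a line, CPM was compared with the DMSO library of the same title form (0.5 CPM added, 2-fold, larger CPM at least 5), and intervals are exact Clopper-Pearson at 95%. No 2 libraries agreed within sampling noise (chi-square per degree of freedom from 7.64 to 230). The fit was tested on simulated data. Transcript lengths and overlaps came from GENCODE and promoters from RefSeq.

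All 10 members were tested in every fitted comparison, and those not called are not all named. From each other list, up to 3 called genes per drug with the largest change and 5 CPM in each line were named, and receptors or inhibitors of the members for their level. IL1R1, LIFR and TNFRSF1A with etoposide were named after their values were seen. Members and lists were chosen with earlier results of these data known. DESeq2 1.42.0, other scalings, filters and blocks, and leaving out each library were tried, and summing CXCL1, CXCL2 and CXCL3 was added after seeing the data.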

Additional observations from a re-analysis of the deposited data

Results flagged for a closer look

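With MMS, 2 members moved in opposite directions in the lines. Each changed by at least 2-fold in one line, with the larger CPM there at least 5, and had a counting interval that leaves out 0 in the other. The log2 ratio (0.5 CPM added) of CXCL1 was -3.32 in U2OS and 0.62 in MDA-MB231. That of IL11 was 2.42 in U2OS and -0.15 in MDA-MB231. IL1B, at -1.89 in U2OS and 0.48 in MDA-MB231, moved in opposite directions too but was below 5 CPM in U2OS. Each line has 1 MMS library, so the difference between lines was not tested. Against the other MDA-MB231 DMSO library, CXCL1 was at -0.26, the same direction as in U2OS, and IL11 at -0.73 in MDA-MB231. The DMSO libraries of that line differed by -0.88 for CXCL1 and -0.59 for IL11, more than the MMS ratios of 0.62 and -0.15.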

How the results depend on the processing

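No fitted value of a member changed sign while called. Of the fitted member values under alternatives, 130 lost a call, 36 gained one and 114 uncalled values moved by more than their error. The other 1290 stayed called in the same direction, or stayed uncalled and within the SE of the main value, where some changed sign. Of the within-line ratios, 340 stayed within counting error and 87 moved. The 340 include every setting that changed only the minimum CPM, which cannot move a ratio. Without the replicate block, that is with no pairing by line, edgeR called 1900 genes for doxorubicin in place of 6748, 0 for etoposide (2734) and 0 for MMS (1651), 2062 for MMS minus doxorubicin (6771), 0 for MMS minus etoposide (1440), 0 for MMS minus paclitaxel (1153) and 1807 for doxorubicin minus etoposide (7367). There every call of a member for a drug against DMSO ended, and of the calls between drugs those of CCL2 for MMS minus doxorubicin and doxorubicin minus etoposide were kept. A block for line alone gave 2434 genes for MMS minus etoposide. It ended 8 member calls, 4 of them of IL8 (etoposide, MMS, MMS minus doxorubicin and MMS minus paclitaxel), and added 1, so these depend on splitting MDA-MB231 by title form. DESeq2 called 2903 genes for MMS, 2796 for MMS minus etoposide, 2531 for MMS minus paclitaxel and 2 for the line difference in response (edgeR 0).

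Leaving out 1 library gave 4058 to 7057 genes for doxorubicin, 49 to 3709 for etoposide and 0 to 2537 for MMS. The contrasts gave 1884 to 6884 genes for MMS minus doxorubicin, 2 to 2369 for MMS minus etoposide, 0 to 1874 for MMS minus paclitaxel, 5376 to 7299 for doxorubicin minus etoposide, 8000 to 10230 for the line level and 0 to 1 for the line difference in response. The lowest came without MDA-MB231 DMSO replicate 1 for doxorubicin and etoposide and without U2OS MMS for the 4 contrasts with MMS. Fits of MMS without MDA-MB231 MMS or DMSO replicate 2 rest on U2OS alone. The line difference could not be fitted without U2OS DMSO, and neither it nor the line level without the block. Where results changed, the cause was not tested.

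Within lines, genes at 2-fold with paclitaxel in MDA-MB231 numbered 51, and 96 or 33 with a minimum CPM of 1 or 10 and 398 against the other DMSO library. In U2OS they numbered 10, and 18 with 0.1 CPM added and 25 or 5 with those minimums. The DMSO pair gave 193, and 383 or 113. Depth limits CCL2 most, with 2 to 239 reads per library.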
